A study of Saccharomyces cerevisiae with 48 samples.

Results

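The progress of meiotic S phase was compared between budding yeast (Saccharomyces cerevisiae) that overproduces DDK and wild-type yeast. The comparison takes 28 of the 48 samples of the series, 14 from DDK overproduction cultures and 14 from wild-type cultures. Each background is represented by an ARS+ and an ars∆ culture, 1 culture per strain, sampled at 1, 1.5, 2, 2.5, 3, 3.5 and 4 hr of sporulation in potassium acetate. The cultures were matched by ars state and time. ARS+ cells carry the normal replication origins of chromosome III, and in the ars∆ strains of this study active origins on the left arm of that chromosome are known to have been removed, so chromosome III was left out of all values given here. The remaining 15 chromosomes hold 4450 of the 4568 listed positions. The deposited ratios were divided by the median of their sample, put on the log2 scale and averaged in windows of 10 kb, which gave 1143 of 1174 windows. The promoter or gene copies that raise DDK are not given in the sources used here, nor is the level of the kinase, and the labels name no separate cultures of one strain. All coordinates are those of the sacCer2 build.

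DDK is the Cdc7 kinase bound to its regulatory subunit Dbf4. It phosphorylates the MCM helicase at licensed origins, a step without which they cannot fire, and its supply is among the factors that limit how many origins fire at once in budding yeast. Origins fire in a characteristic order, so DNA near early origins is copied before DNA that only late origins or long-travelling forks reach. In meiosis the same kinase also acts on the recombination protein Mer2, which ties the formation of DNA breaks to passage of the fork. In total DNA from a culture in S phase, early regions are present in more copies than late ones, and the excess disappears when the late regions are copied.

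A value of 0 on the log2 scale stands for the median position of a sample. Because every sample is scaled to its own median, the values say how far one region is ahead of another and not how much DNA the culture had made. Fewer cells in S phase and a smaller gap in timing within each cell cannot be told apart in DNA from a whole culture. The ratios of the 4 cultures ran from 0.549 to 1.47, and no counts are given, so the depth is unknown. Position-to-position scatter around a running mean of 5 positions was alike in the 4 cultures, with an SD of 0.042 to 0.058 on the log2 scale. This scatter correlated between a sample and the other samples of its culture at 0.38 to 0.64 on average, and with no sample of another culture above 0.13. Each table thus carries a scatter of its own, and 1 culture is 1 table. The DDK overproduction ARS+ sample at 4 hr stood apart, with the highest scatter (0.058) and the lowest correlation with its own culture (0.38, against 0.45 to 0.47 for the other 6 samples).

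Early and late regions were taken from cultures outside the comparison. The 229 earliest and 229 latest windows, 20% at each end, were those with the highest and lowest mean of 2 to 4 hr minus 1 hr in the 2 tof1∆ cultures, which lack a component of the replication fork. The windows on either side of the bound both had 0.048 for the earliest class and both had -0.045 for the latest.

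The earliest windows drew ahead of the latest ones in all 4 cultures. They did so sooner in the DDK overproduction cultures by all 3 measures of onset used below, and reached a lower maximum there. All 3 measures start from the 1 hr value of each culture. In wild-type ARS+ the mean of the earliest windows minus that of the latest was 0.00076 at 1 hr, -0.0023 at 1.5 hr, 0.054 at 2 hr, 0.043 at 2.5 hr, 0.053 at 3 hr, 0.13 at 3.5 hr and 0.081 at 4 hr. In wild-type ars∆ it was -0.013, -0.010, 0.00085, 0.12, 0.17, 0.15 and 0.10 at the same times. Wild-type ARS+ thus stood on a plateau from 2 to 3 hr, while wild-type ars∆ lay near or below 0 through 2 hr. In DDK overproduction ARS+ the difference was -0.014, 0.0056, 0.054, 0.10, 0.11, 0.064 and 0.051. In DDK overproduction ars∆ it was -0.0055, 0.032, 0.056, 0.033, 0.083, 0.11 and 0.073. At 1.5 hr both DDK overproduction cultures lay above both wild-type cultures, and at 3.5 and 4 hr both lay below them. With 2 cultures against 2, an exact permutation test cannot go below p = 0.33, so these values are given without a test.

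**Figure D1:**
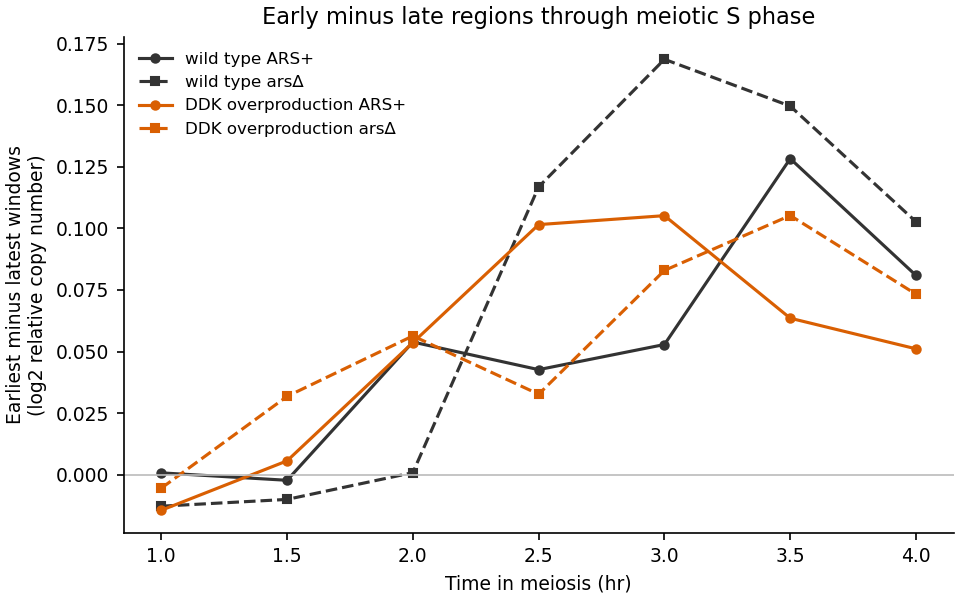
Difference between the 229 earliest and the 229 latest windows (log2 relative copy number, vertical axis) against time in meiosis (hr), 1 line per culture and 1 point per sample, with no error bars because each point is a single sample. The DDK overproduction cultures reach at most 0.11, the wild-type cultures 0.13 and 0.17, and at 1.5 hr the DDK overproduction points (0.0056 and 0.032) lie above the wild-type points (-0.0023 and -0.010).

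Onset was measured as the time at which this difference had covered 50% of its way from the 1 hr value to its maximum, by interpolation between samples 0.5 hr apart. It came at 1.91 hr in DDK overproduction ARS+ and at 1.87 hr in DDK overproduction ars∆. In wild type it came at 3.08 hr in ARS+ and at 2.33 hr in ars∆. The 2 wild-type cultures therefore differed from each other by more than the DDK overproduction cultures did. DDK overproduction minus wild type was -1.16 hr in the ARS+ pair and -0.46 hr in the ars∆ pair, a mean difference of -0.81 ± 0.49 hr (SD, n = 2 pairs). Measured at 25% of the way, onset was at 1.60 and 1.37 hr in the DDK overproduction ARS+ and ars∆ cultures and at 1.81 and 2.14 hr in the wild-type ones. Measured as a distance of 0.05 over the 1 hr value, it was at 1.81 and 1.76 hr against 1.97 and 2.16 hr.

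The order of onset was the same in both pairs by all 3 measures, but its size and in places its direction rested on single times. Without the samples at 3.5 hr, which hold the maximum of wild-type ARS+, onset in the ARS+ pair differed by 0.030 hr, DDK overproduction being the later. Without the samples at 2 hr, DDK overproduction ars∆ was later than wild-type ars∆ by 0.48 hr, its difference being 0.056 at 2 hr and 0.033 at 2.5 hr. In the ARS+ pair the cultures had the same difference at 2 hr, 0.054 in each.

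At 1.5 and 2 hr the means of the backgrounds lay apart at both ends of the timing order. Relative to 1 hr, the earliest windows stood 0.024 higher in each DDK overproduction culture, against 0.017 and 0.0089 in wild-type ARS+ and ars∆. The latest windows stood at -0.020 and -0.025 in DDK overproduction ARS+ and ars∆, against -0.0083 and 0.00069 in wild type. The difference between backgrounds was 0.011 ± 0.0058 (SD, n = 2 pairs) for the earliest class and -0.019 ± 0.010 (SD, n = 2 pairs) for the latest. Of the 229 latest windows, 97 were lower in DDK overproduction in both pairs and 25 higher in both, whereas among all 1143 windows 304 were lower in both and 292 higher in both. Of the 229 earliest, 83 were higher in both pairs and 37 lower in both. Windows of 1 chromosome share replication forks and all windows of a pair share 2 cultures, so these counts describe the profiles and are not tests.

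The lead of DDK overproduction in the ARS+ pair depended on the 1 hr value. Earliest minus latest at 1.5 and 2 hr, relative to 1 hr, was 0.044 and 0.050 in DDK overproduction ARS+ and ars∆ and 0.025 and 0.0082 in wild type. The difference between backgrounds was thus 0.019 in the ARS+ pair and 0.041 in the ars∆ pair, on average 0.030 ± 0.016 (SD, n = 2 pairs). With no subtraction of 1 hr it was 0.0038 in the ARS+ pair and 0.049 in the ars∆ pair.

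**Figure D2:**
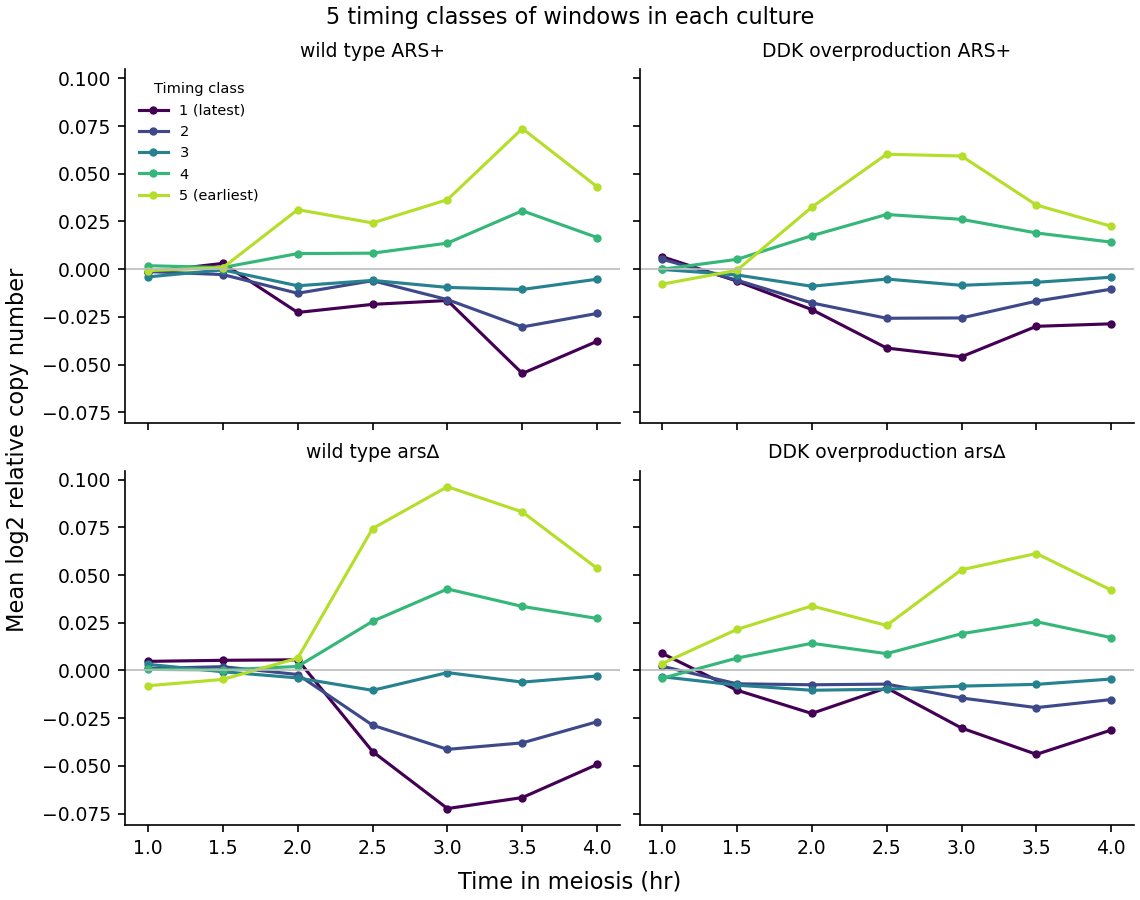
Mean log2 relative copy number (vertical axis) of 5 timing classes of windows, 20% of windows each, ranked in the tof1∆ cultures from latest (1) to earliest (5), against time in meiosis (hr), 1 panel per culture. The 5 classes lie in rank order in every culture at 3, 3.5 and 4 hr, and not yet at 1 or 1.5 hr; the earliest class reaches 0.060 and 0.061 in the DDK overproduction cultures against 0.074 and 0.096 in wild type.

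The maximum of the difference between earliest and latest windows was 0.11 in each DDK overproduction culture, at 3 hr in ARS+ and 3.5 hr in ars∆. Wild type reached 0.13 in ARS+ at 3.5 hr and 0.17 in ars∆ at 3 hr. DDK overproduction minus wild type was -0.023 in the ARS+ pair and -0.063 in the ars∆ pair, on average -0.043 ± 0.028 (SD, n = 2 pairs). The time of the maximum was not ordered by background, since DDK overproduction came first in the ARS+ pair and wild type in the ars∆ pair. Without the samples at 3.5 hr the ARS+ pair turned, to 0.024 higher with DDK overproduction. With classes ranked instead in the wild-type and DDK overproduction cultures of the other ars state, the maxima were 0.13 and 0.12 in DDK overproduction ARS+ and ars∆ and 0.14 and 0.18 in wild type.

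The spread of the whole profile was lower with DDK overproduction in the ars∆ pair and nearly equal in the ARS+ pair, where its sign turned with windows of 5 kb (to 0.0020). Measured as the interquartile range over windows, a wider measure than the SD, it was lower with DDK overproduction in both pairs, with differences of -0.016 in ARS+ and -0.038 in ars∆. The SD over all windows had its maximum at 0.073 in DDK overproduction ARS+ and 0.074 in wild-type ARS+, and at 0.071 in DDK overproduction ars∆ against 0.096 in wild-type ars∆. The mean difference was -0.013 ± 0.017 (SD, n = 2 pairs), smaller than its own spread. The SD holds noise as well as replication, so the covariance of neighbouring windows was used beside it, whose square root measures what adjacent windows share. That amplitude was 0.059 and 0.056 at its maximum in DDK overproduction ARS+ and ars∆ and 0.062 and 0.083 in wild type. At 1 hr it was already 0.032 and 0.031 in the DDK overproduction cultures, above the 0.019 and 0.022 of wild type, and at 1.5 and 2 hr it was again higher in both. The structure shared at 1 hr did not follow the tof1∆ order, with correlations of -0.10 and -0.045 over windows in DDK overproduction and 0.026 and -0.091 in wild type.

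**Figure D3:**
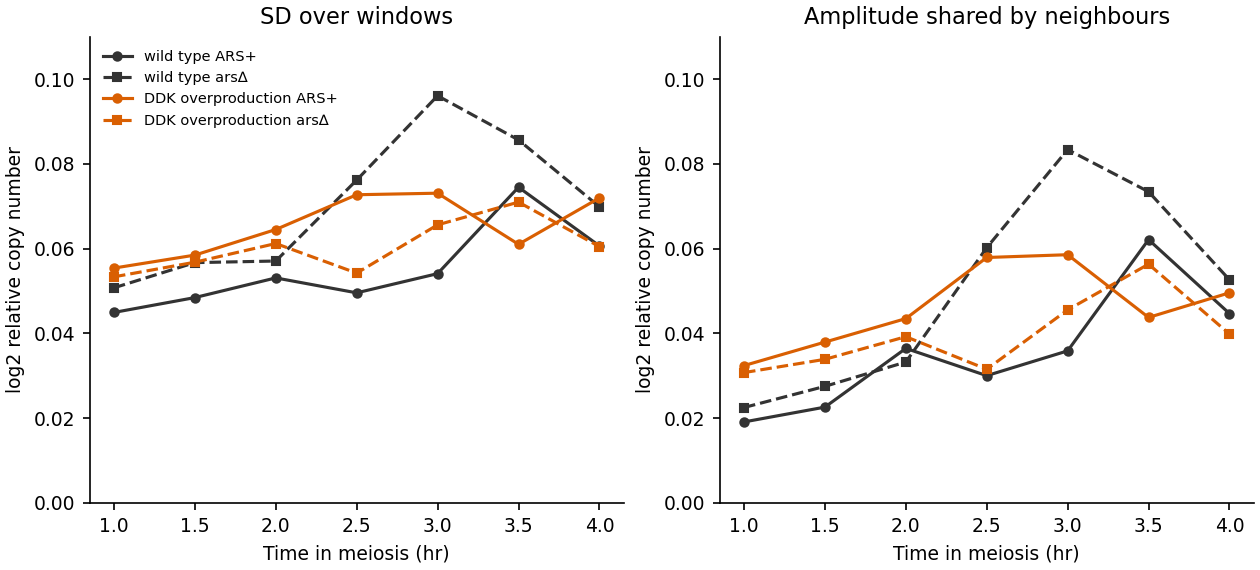
SD over 1143 windows (left) and the amplitude that neighbouring windows share (right), both in log2 relative copy number, against time in meiosis (hr), 1 point per sample. Wild-type ars∆ at 3 hr is the highest point in both panels (0.096 and 0.083), and at 1 hr both DDK overproduction cultures lie above both wild-type cultures.

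At the end of the course the difference between earliest and latest windows was still present. At 4 hr it held 48.6% of its maximum in DDK overproduction ARS+ and 69.6% in DDK overproduction ars∆. Wild type held 63.0% in ARS+ and 60.9% in ars∆, between the values of the DDK overproduction cultures. The mean difference between backgrounds was -2.85 ± 16.4 percentage points (SD, n = 2 pairs). The lowest of the 4 values comes from the sample that stood apart in its scatter, and at 3.5 hr that culture was at 0.064, below the 0.11 it had at 3 hr.

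In mid S phase the 2 pairs went opposite ways. Averaged over 2.5 to 3.5 hr and relative to 1 hr, earliest minus latest was 0.10 in DDK overproduction ARS+ against 0.074 in wild-type ARS+, and 0.079 in DDK overproduction ars∆ against 0.16 in wild-type ars∆. The 2 wild-type cultures lay further apart than either pair did. The mean difference of -0.024 ± 0.077 (SD, n = 2 pairs) was smaller than its spread.

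The 15 chromosomes were also taken one by one. Relative to 1 hr, earliest minus latest windows at 1.5 and 2 hr were higher with DDK overproduction on 10 of 15 chromosomes in the ARS+ pair and on 13 of 15 in the ars∆ pair. They were higher in both pairs on 9 chromosomes. Chromosome I was the only one lower in both, at -0.048 and -0.019, and it holds just 3 earliest and 8 latest windows. On chromosome XVI, with 18 earliest and 15 latest windows, the difference was 0.058 and 0.048. On chromosome VIII, with 1 earliest window, it was -0.041 and 0.026. At 2.5 to 3.5 hr DDK overproduction was higher on 13 of 15 chromosomes in the ARS+ pair and on 1 of 15 in the ars∆ pair. The chromosomes of a culture move together and are not replicates. At 1.5 and 2 hr the ARS+ difference over all 15 chromosomes was 0.019 relative to 1 hr and 0.0038 with nothing subtracted. Counts by chromosome were made only relative to 1 hr.

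**Figure D4:**
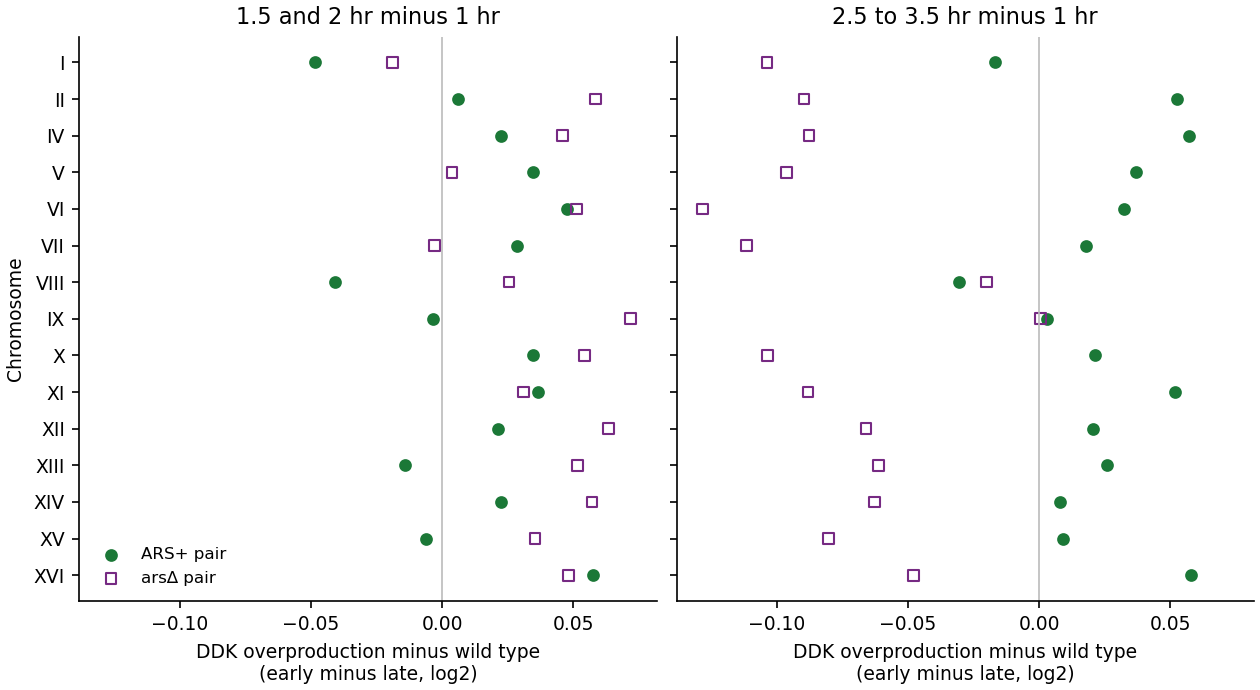
Earliest minus latest windows, DDK overproduction minus wild type (log2 relative copy number, horizontal axis), for each of 15 chromosomes (vertical axis), at 1.5 and 2 hr (left) and 2.5 to 3.5 hr (right), both relative to 1 hr. Filled circles are the ARS+ pair and open squares the ars∆ pair. Most points of both pairs lie right of 0 on the left, and the pairs part on the right, where 13 circles lie above 0 and 14 squares below it.

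Centromeric DNA, known to replicate early in budding yeast, gives a set of early windows that no culture chose. The 30 windows within 10 kb of a centromere stood at 0.027 and 0.046 at 1.5 hr in DDK overproduction ARS+ and ars∆ and at 0.0062 and 0.019 in wild type. At 2 hr they stood at 0.081 and 0.046 against 0.047 and 0.022, so that DDK overproduction was higher in both pairs at both times. In the ARS+ pair the centromeres of DDK overproduction were already at 0.024 at 1 hr, against 0.0059. Their maximum was 0.10 in DDK overproduction ARS+ and 0.086 in ars∆, and 0.11 and 0.15 in wild type. The 94 windows that reach into the outer 30 kb of a chromosome, which contain mostly late origins, were at -0.052 and 0.013 at 1.5 hr in DDK overproduction ARS+ and ars∆ and at 0.020 and 0.022 in wild type. They were lower with DDK overproduction in both pairs at 2 hr too, at -0.014 against 0.0094 and at 0.015 against 0.048.

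Origins with a textbook time of firing gave mixed values window by window. ARS416, also called ARS1, lies in the window at 460001 to 470000 on chromosome IV. Its value in DDK overproduction ARS+ was 0.11 at 1 hr, 0.14 at 1.5 hr, 0.19 at 2 hr, 0.13 at 2.5 hr, 0.15 at 3 hr, 0.18 at 3.5 hr and 0.020 at 4 hr. Wild-type ARS+ was at 0.047, -0.025, 0.042, 0.017, -0.010, 0.15 and 0.032. DDK overproduction ars∆ was at -0.059, 0.025, 0.021, -0.019, 0.037, 0.063 and 0.046, and wild-type ars∆ at -0.015, 0.035, -0.018, 0.15, 0.17, 0.19 and 0.079. ARS416 was thus higher with DDK overproduction through 3.5 hr in the ARS+ pair. In the ars∆ pair it was lower with DDK overproduction at every time but 2 hr. Relative to 1 hr, its difference at 1.5 and 2 hr was 0.076 (SE 0.034, limma adjusted p = 0.69).

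The early origins ARS606 and ARS607, at 160001 to 170000 and 190001 to 200000 on chromosome VI, were above 0 in all 28 samples. ARS606 ran from 0.14 to 0.28 over the times of the DDK overproduction cultures and from 0.041 to 0.32 over those of wild type. Its value at 2.5 to 3.5 hr relative to 1 hr was 0.037 and 0.042 in DDK overproduction ARS+ and ars∆ against 0.11 and 0.15 in wild type, a difference of -0.091 (SE 0.033, limma adjusted p = 0.98). Among the late origins, ARS522 on chromosome V (540001 to 550000) was lower than 0 in most samples, between -0.074 and 0.029. ARS603 and ARS609 on chromosome VI stayed above 0 in all samples, ARS603 between 0.0022 and 0.18 and ARS609 between 0.012 and 0.20. In ARS609 (250001 to 260000) the value relative to 1 hr at 1.5 and 2 hr was -0.10 and -0.024 in DDK overproduction ARS+ and ars∆ and 0.0069 and 0.049 in wild type, a difference of -0.092 (SE 0.032, limma adjusted p = 0.60). None of the 6 origin windows passed in early, mid or late S phase.

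**Figure D5:**
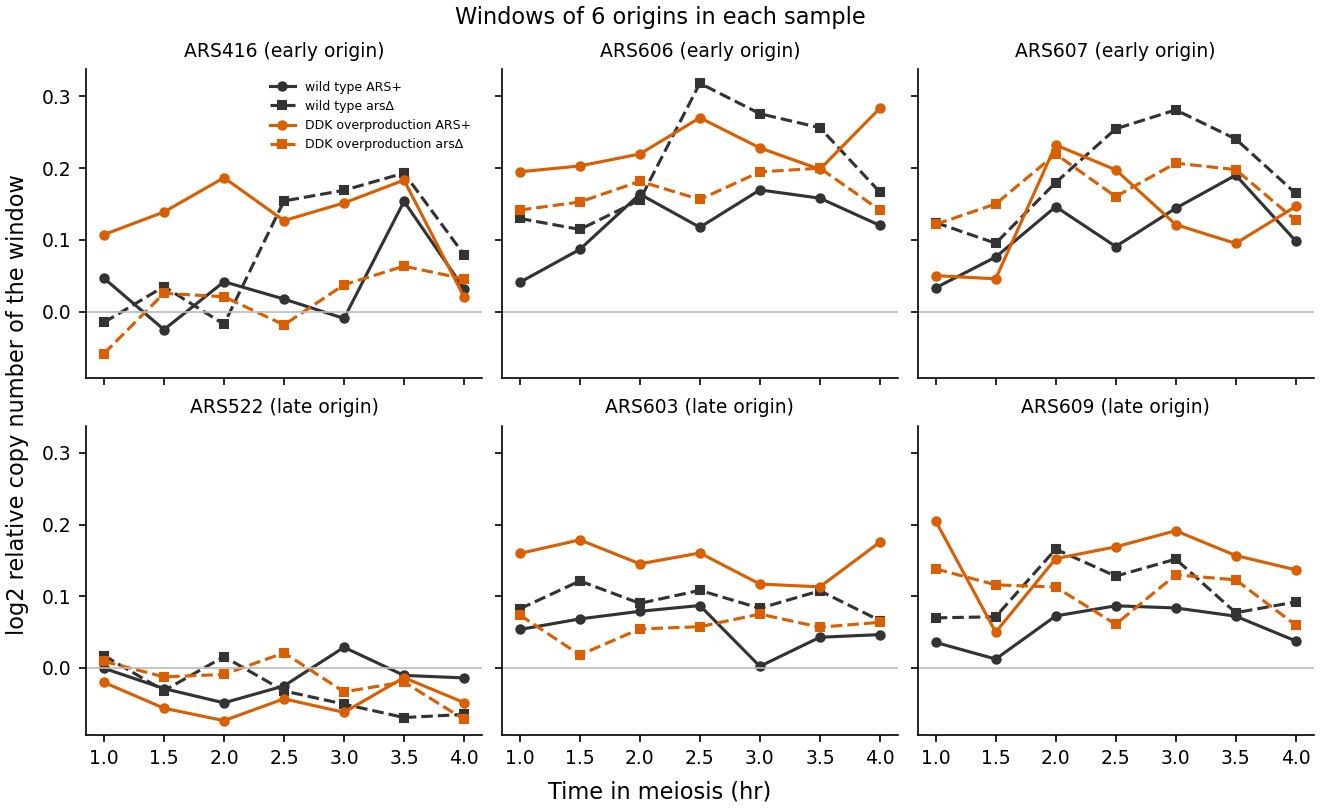
Value of the 10-kb window of 6 origins (log2 relative copy number, vertical axis) against time in meiosis (hr), 1 line per culture and 1 point per sample. The windows on chromosome VI (ARS606, ARS607, ARS603 and ARS609) lie above 0 from 1 hr on in every culture, and no window keeps the same order of the 4 cultures through the course.

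Window by window, limma compared DDK overproduction with wild type in 3 parts of S phase, with all 6 cultures of the series sharing the estimate of spread. For early S phase (1.5 and 2 hr minus 1 hr) it called 0 of 1143 windows (0%) at an adjusted p under 0.05, with 73 at an unadjusted p under 0.05. Where no window differs, a share of about 0.05 of all windows falls under that unadjusted level. Such counts, here and below, therefore do not by themselves show changed windows. The window with the lowest p covers 180001 to 190000 of chromosome I. Its index was 0.14 and 0.13 in wild-type ARS+ and ars∆ and -0.051 and -0.063 in DDK overproduction, a difference of -0.19 (SE 0.033) with an adjusted p of 0.12. The window was above 0 in all 28 samples; at 1.5 and 2 hr wild type was at 0.16 and 0.21 in ARS+ and at 0.21 and 0.25 in ars∆, against 0.088 and 0.064 in DDK overproduction ARS+ and 0.090 and 0.16 in DDK overproduction ars∆. With no value subtracted the difference was -0.11. That window passed when only windows with all 4 positions were tested (adjusted p = 0.0075). So did 1090001 to 1100000 of chromosome IV, with a difference of 0.19 (SE 0.036) and an adjusted p of 0.013, which was 0.17 among all windows. A further window near the left end of chromosome I (20001 to 30000), with 2 listed positions, differed by -0.19 with an SE of 0.038 and an adjusted p of 0.17, and by 0.043 with no value subtracted. The count was 9 without wild-type ARS+, 11 without wild-type ars∆, 5 without DDK overproduction ARS+ and 11 without DDK overproduction ars∆, fits in which 1 background has a lone culture.

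For mid S phase (2.5 to 3.5 hr minus 1 hr) limma gave 47 windows an unadjusted p under 0.05. Of the 1143 windows, 1 was called (0.0875%), and it was higher in DDK overproduction. It lies at 10001 to 20000 on chromosome X, close to the left end, and rests on 1 listed position. Wild type was there at -0.15 and -0.24 and DDK overproduction at 0.16 and 0.11 in ARS+ and ars∆, a difference of 0.33 (SE 0.032, adjusted p = 0.0014). The samples subtracted differed as well. At 1 hr the position was at 0.058 and 0.20 in wild type and at -0.15 and -0.16 in DDK overproduction, and with nothing subtracted the difference was 0.040 and the window was not called. The single call without subtraction was another window, 1090001 to 1100000 of chromosome IV (difference 0.30, SE 0.046, adjusted p = 0.00098). The count was 0 without wild-type ars∆, 6 without DDK overproduction ARS+ and 8 without DDK overproduction ars∆.

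For late S phase (4 hr minus 2.5 to 3.5 hr) limma called 0 windows (0%), with 44 at an unadjusted p under 0.05. The window with the lowest p, 450001 to 460000 of chromosome XII, which carries the ribosomal DNA, has 1 listed position and differed by -0.31 with an SE of 0.060 and an adjusted p of 0.27. Next came 20001 to 30000 of chromosome I with a difference of -0.23, an SE of 0.046 and an adjusted p of 0.27. In 710001 to 720000 of chromosome VII the difference was 0.18, with an SE of 0.043 and an adjusted p of 0.39. The count was 2 without wild-type ARS+ and 9 without wild-type ars∆.

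The window at 1090001 to 1100000 on chromosome IV was also the latest of all windows with 4 positions in the tof1∆ cultures. In wild-type ARS+ it was at -0.11 at 1 hr, -0.24 at 1.5 hr, -0.27 at 2 hr, -0.17 at 2.5 hr, -0.20 at 3 hr, -0.38 at 3.5 hr and -0.23 at 4 hr. Wild-type ars∆ had 0.087, -0.020, -0.13, -0.15, -0.32, -0.033 and -0.18. In DDK overproduction ARS+ it was at 0.064, -0.035, 0.10, 0.10, 0.029, 0.012 and 0.23, and its ars∆ counterpart had 0.10, 0.25, 0.15, 0.057, 0.14, 0.20 and 0.23. It was below 0 in 13 of 14 wild-type samples and above 0 in 13 of 14 DDK overproduction samples. These samples come from 2 cultures per background and share the scatter of their culture, so they are not replicates. In mid S phase its difference relative to 1 hr was 0.21 with an SE of 0.053 and an adjusted p of 0.98; it was called with only the 4 cultures compared (adjusted p = 0.0039) and with nothing subtracted. In early S phase, relative to 1 hr, the chromosome IV window differed by 0.19. The windows directly on either side of it each differed by less than their own SE, so the early difference was not seen in adjacent windows. In mid S phase, relative to 1 hr, both neighbours also differed by less than the chromosome IV window. The other windows at the late extreme did not share its pattern of signs. At 1030001 to 1040000 on chromosome VII, values at 3 hr were -0.098 and -0.033 in DDK overproduction ARS+ and ars∆ and -0.039 and -0.17 in wild type. At 20001 to 30000 on chromosome X they were -0.14 and -0.18 against -0.030 and -0.20.

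At the early extreme, the window at 150001 to 160000 on chromosome XII reached 0.15 at 3 hr in DDK overproduction ARS+ and 0.052 at 3.5 hr in DDK overproduction ars∆. Wild type reached 0.13 at 3.5 hr in ARS+ and 0.14 at 2.5 hr in ars∆. The window at 400001 to 410000 on chromosome IV reached 0.046 and 0.051 with DDK overproduction and 0.059 and 0.13 in wild type. At 200001 to 210000 on chromosome IX, DDK overproduction ARS+ was at 0.22 and DDK overproduction ars∆ at -0.17 at 1 hr, so that no order by background could be read there.

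Correlations of whole profiles between backgrounds overlapped in range with those between 2 cultures of the same background at every time but 2.5 hr. At 2.5 hr they were 0.38 and 0.34 between backgrounds in ARS+ and ars∆, below 0.43 within wild type and 0.42 within DDK overproduction. Cultures of different backgrounds were matched by ars state, and cultures of the same background differ in it. Over the 1143 windows the correlation of DDK overproduction with wild type was 0.14 in ARS+ and 0.17 in ars∆ at 1 hr, 0.45 and 0.57 at 3 hr, and 0.52 and 0.63 at 3.5 hr. Between the 2 wild-type cultures it was 0.13 at 1 hr, 0.53 at 3 hr and 0.69 at 3.5 hr, and between the 2 DDK overproduction cultures 0.25, 0.55 and 0.49. At 4 hr the correlation was 0.27 in the ARS+ pair, which includes the sample that stood apart, and 0.44 in the ars∆ pair. Between the 2 wild-type cultures it was 0.47 at that time, and between the 2 DDK overproduction cultures 0.35. These correlations are across windows of 2 samples, which are not independent replicates.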

How the data were processed

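Per the submitters' processing notes, reads of total DNA were aligned with BWA to sacCer2. The authors deposited 1 table of ratios per strain at positions 2.5 kb apart, and what the ratios were divided by is not stated. The 0 hr samples have no column and were not analysed here. Tables were assigned to strains by the strain name they share with the sample titles. Members, lists and tests were chosen with earlier results of these data known.

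Ratios were divided by the column median, put on the log2 scale and averaged in 10-kb windows. Windows were tested with limma (version 3.58.1, R 4.3.3) on 1 index per culture with terms for background and ars state over 6 cultures (2 residual and 8.4 to 9.7 prior degrees of freedom), Benjamini-Hochberg adjusted over all 1174 windows. The script was tested on simulated data with the spread of these cultures. Of 50 windows changed by 0.05, it called 6 in early, 1 in mid and 2 in late S phase. Of 50 changed by 0.1 it called 29, 17 and 22, and of 50 changed by 0.2 it called 50, 49 and 50. These windows and 50 changed by 0.4 were changed together, which left 974 unchanged. So many changed windows ease the adjusted threshold, so these counts can overstate what the fits here could find. In the real early S fit, differences of 0.19 in size had limma adjusted p of 0.12 to 0.17. Few or no calls therefore do not show that windows were unchanged. P-values measure the spread between cultures only. Other values have 2 cultures per background and no test. Named windows were the called ones (or the 3 with the lowest p), the 3 earliest and 3 latest in tof1∆, and 6 origins, placed with the centromeres by rounded position from general knowledge. Alternatives covered window size, classes, baselines, scaling, eBayes settings and left-out cultures or times.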

Additional observations from a re-analysis of the deposited data

Results flagged for a closer look

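Several differences between DDK overproduction and wild type parted between the ARS+ and ars∆ pairs, most of them with opposite signs. Each pair holds 1 culture per background, so these differences between pairs were not tested. Earliest minus latest windows at 2 hr differed between backgrounds by -0.00022 in ARS+, which is next to none, and by 0.055 in ars∆ (0.056 apart). At 2.5 hr the differences were 0.059 and -0.084 (ars∆ minus ARS+ -0.14), and at 3 hr they were 0.052 and -0.086 (-0.14). Averaged over 2.5 to 3.5 hr relative to 1 hr, they were 0.031 and -0.079 (-0.11). Centromeric windows over the same times differed by 0.0061 and -0.055 (-0.061), and windows at chromosome ends by -0.051 and 0.021 (0.072). The share of the maximum left at 4 hr differed by -14.4 and 8.75 percentage points (23.2). No group had the 4 samples needed to look for single outlying cultures.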

How the results depend on the processing

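Of 119 alternatives run on summaries and counts, 103 stayed within the spread between pairs or within 1.5 times the count, and none turned a mean difference whose pairs shared a sign. Some of these outcomes were fixed in advance. With 1 of the 2 pairs left out, the value always lies within the SD of the pairs, even where its sign differs from the mean. Leaving out a time at which no culture had its maximum cannot move the maximum. The 103 therefore do not measure how stable the results are. The mean onset difference of -0.81 hr was -0.28 hr for a distance of 0.05 from 1 hr, and from -0.33 hr (without 3.5 hr) to -0.88 hr (without 2.5 hr) with 1 time left out. The difference in maximum lay between -0.031 and -0.052 under the alternatives that kept both pairs. The early S count of 0 became 2 with only full windows and 1 with no ars term (chromosome I, 180001). Leaving out each culture in turn gave 5 to 11. The mid S count of 1 became 0 with only full windows, 3 with 4 cultures only and 2 with 1 and 1.5 hr subtracted, and 0 to 8 when cultures were left out singly. It stayed at 1 with nothing subtracted, but for another window (chromosome IV, 1090001, in place of chromosome X, 10001). The late S count of 0 became 3 with 4 cultures only and 0 to 9 in the same way. A lone culture is assumed there to vary like the rest. The summaries of class means at 1.5 and 2 hr and at 2.5 to 3.5 hr, and of centromeres and chromosome ends, were themselves chosen after seeing the data, as were onset and maximum with a time left out, onset and class means without subtraction, and classes from the other ars state. Beyond fewer windows or cultures, the cause was not tested. Depth is unknown and limits single windows.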

Other observations

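Relative to the 1 hr samples, each DDK overproduction ARS+ sample from 1.5 to 4 hr correlated over windows best with wild type at 3.5 hr, and each DDK overproduction ars∆ sample from 1.5 to 3.5 hr best with wild type at 3 hr. These are the wild-type samples in which earliest minus latest windows were highest, so the best match does not order the cultures in time. The correlations ran from 0.0084 (1.5 hr) to 0.51 (3 hr) in the ARS+ pair. In the ars∆ pair they ran from 0.29 (1.5 hr) to 0.67 (3.5 hr), and the 4 hr sample correlated best with wild type at 3.5 hr (0.54). Samples of a culture share their 1 hr reference, and the correlations were not tested.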
